A study of Homo sapiens with 6 samples.

Results

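The genes of the hypoxia response and of glycolysis were examined in HCT116 cells, a human colon carcinoma cell line, and in HCT116 cells edited at the gene of the zinc finger transcription factor ZKSCAN3. The set held 45 genes chosen by symbol among the 46427 genes of the count table, and 44 of them passed the expression filter that left 18366 genes for testing. The 45th, *VEGFC*, a lymphangiogenic growth factor, had 0 reads in each of the 6 libraries, where 3 reads would have been 0.0428 to 0.0485 CPM (reads on a gene scaled to the size of the library). The set comprised 7 genes of oxygen sensing, 3 VEGF ligands, 11 other hypoxia-induced genes, 4 glucose and lactate transporters, 16 glycolytic enzymes and regulators, and 4 enzymes at the pyruvate branch point. Parental HCT116 cells with an intact *ZKSCAN3* gene (*ZK3*-WT) and cells in which CRISPR/Cas9 was aimed at the start codon in the first exon of *ZKSCAN3* (*ZK3*-KO) were sequenced as 3 biological replicates each. According to the study's methods the edited cells were selected with puromycin, derived from single cells and mutated in both alleles. Whether the 3 cultures came from 1 clone is not stated, and clonal differences and the loss of ZKSCAN3 cannot be told apart in this design. Both genotypes were kept in DMEM with serum in the same incubator conditions, and neither the labels nor the methods give a low-oxygen treatment.

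In cells with enough oxygen, the prolyl hydroxylases encoded by *EGLN1*, *EGLN2* and *EGLN3* modify the HIF α subunits, which are then bound by the VHL ubiquitin ligase and degraded. When oxygen is short, the α subunits HIF-1α (*HIF1A*) and HIF-2α (*EPAS1*) pair with ARNT, bind DNA at a short core motif and raise the transcription of genes for glucose uptake, glycolysis, lactate export, angiogenesis and pH control. Regulation of the HIF α subunits is largely at the protein level, which RNA sequencing does not measure. Colon carcinoma cells in culture ferment much of their glucose to lactate even in air, and glycolytic genes are abundantly transcribed in them.

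Reads on genes summed to 60827060 to 69739215 per library, and the scaling factors (TMM) lay between 0.910 and 1.03, with the lowest in *ZK3*-KO replicate 3. Values per library are given below in the order of replicates 1, 2 and 3, as CPM scaled with these factors unless TPM, which also corrects for transcript length, is named. Where a sentence gives 2 sets of 3 values without naming the cells, *ZK3*-WT comes first and *ZK3*-KO second. The targeted gene was still transcribed. *ZKSCAN3* was at 28.1, 23.4 and 19.8 CPM in *ZK3*-WT cells and 25.4, 24.9 and 13.6 CPM in *ZK3*-KO cells, with overlapping groups (log2 fold change -0.16, FDR = 0.797), and a total read count does not show the state of the start codon. The 5 epithelial markers summed to 3768 to 4828 TPM in *ZK3*-WT and 3463 to 5612 TPM in *ZK3*-KO libraries. The 4 endothelial and 5 immune markers were under 1 TPM in every library, as were 4 of the 5 fibroblast markers. The remaining fibroblast marker, *COL1A1*, was at 11.9 to 29.1 TPM. *ZK3*-KO replicate 3 stood apart from the other libraries of its genotype: without it, 2858 genes passed the threshold (15.1% of those tested) against 376 with it, so values without it are also given for the 5 members called without it and for *NDRG1*.

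One member of the set, the glucose transporter gene *SLC2A3*, was lower in *ZK3*-KO cells in edgeR's quasi-likelihood test at a threshold of 0.05 on the false discovery rate (FDR), and 0 members were higher. Over all tested genes 2.05% passed this threshold, 1.23% lower and 0.817% higher, so 1 of 44 members is near the background. At an unadjusted p under 0.05, 4 members were called, 2 higher (*EPAS1* and *ERO1A*) and 2 lower (*SLC2A1* and *SLC2A3*), against 18.4% of all tested genes. The CPM values of 11 members did not overlap between the genotypes, 6 higher and 5 lower in *ZK3*-KO. This is 25% of the members, beside 26.6% of all tested genes. Of these members, *SLC16A3*, *PFKP* and *VEGFB* overlapped on the TPM scale. DESeq2, which called 8.20% of all genes, called 3 members: *SLC2A3* and *SLC2A1* as lower and *ERO1A* as higher. Fold changes were above 0 for 27 members and below 0 for 17, with a median log2 fold change of 0.15 beside 0.02 over all tested genes. Without *ZK3*-KO replicate 3, 5 members passed the threshold, beside 15.1% of all genes: *SLC2A3*, *SLC2A1* and *VEGFA* as lower and *ERO1A* and *PGAM1* as higher.

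**Figure D1:**
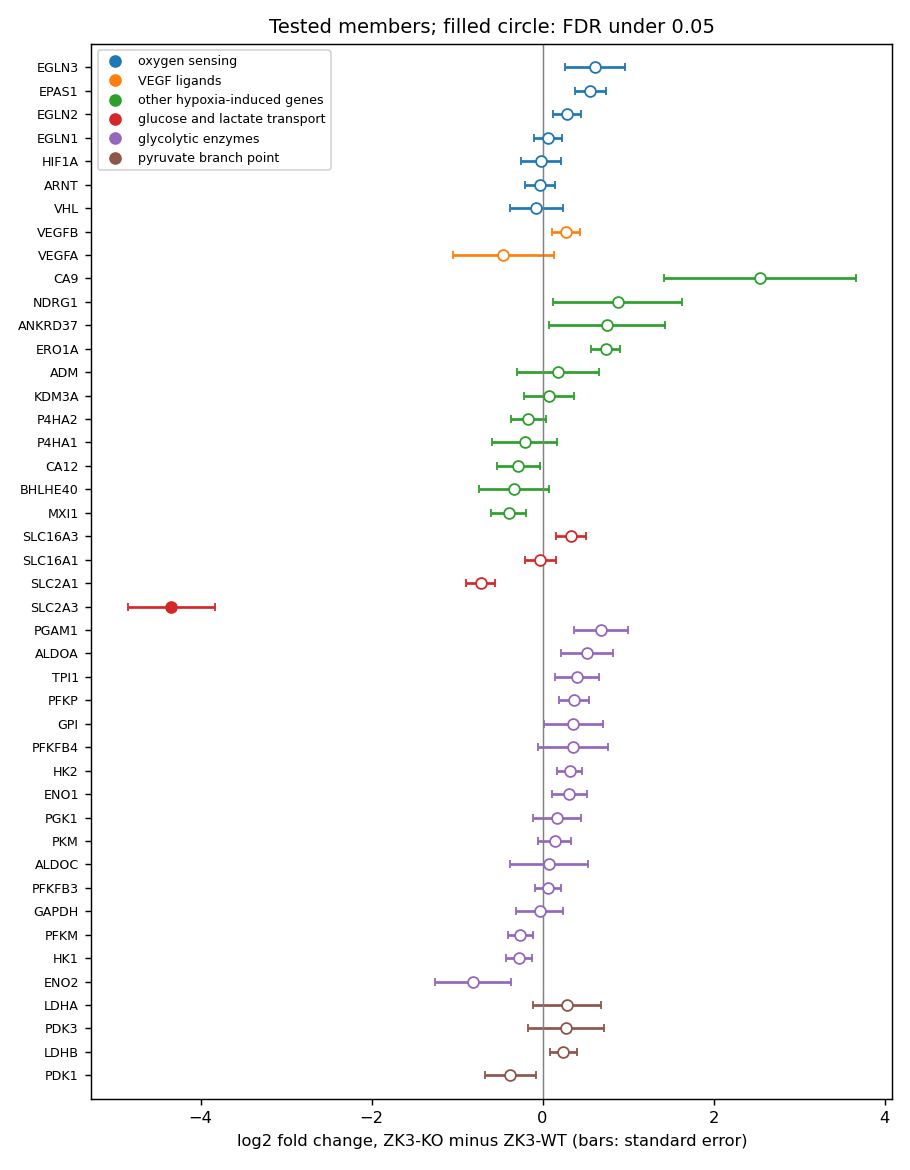
Log2 fold change (horizontal axis, *ZK3*-KO minus *ZK3*-WT) of the 44 tested members, with bars for 1 standard error, colours for the 6 roles and a filled circle where the FDR was under 0.05. *SLC2A3* at -4.34 is the only filled circle, and *CA9* at 2.54 has the widest bar.

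*SLC2A3*, which encodes the high-affinity glucose transporter GLUT3, was at 49.4, 38.3 and 47.9 CPM in *ZK3*-WT cells and 2.00, 0.865 and 3.84 CPM in *ZK3*-KO cells. Each *ZK3*-KO library was far under the lowest *ZK3*-WT library, and the means were 45.2 ± 6.06 and 2.23 ± 1.499 CPM (SD, n = 3 each). It was 20.3-fold lower in the *ZK3*-KO libraries, a log2 fold change of -4.34 (SE 0.51, FDR = 0.0101) by edgeR. In bulk RNA, fewer cells with the transcript and less of it per cell cannot be told apart. The FDR was 0.0610, 0.0624 and 0.0529 by edgeR when *ZK3*-WT replicate 1, 2 or 3 was left out and 0.0732 without *ZK3*-KO replicate 1, so that the call needed each of these libraries. It was 0.0100 and 1.65e-04 without *ZK3*-KO replicate 2 or 3, and the log2 fold change stayed between -4.98 and -3.95. Leaving out a library also leaves fewer samples. Over all genes edgeR called 67 without *ZK3*-WT replicate 1, against 376 with all libraries.

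*SLC2A3* lies on the minus strand of chromosome 12 (GRCh37, 8071826 to 8171603). Its near copy *SLC2A14* (GLUT14) lies 28082 bp away and had 86, 70 and 96 reads in *ZK3*-WT and 0, 0 and 9 reads in *ZK3*-KO libraries (FDR = 0.0674 by edgeR). Reads can be split between such copies, but with both genes summed the values were 50.8, 39.3 and 49.3 CPM against 2.00, 0.865 and 3.98 CPM, and the sum was 20.4-fold lower in *ZK3*-KO cells (FDR = 0.0111 by edgeR). Of the 9 other tested genes within 500 kb, 0 passed the threshold by edgeR, 0 had an unadjusted p under 0.05 and DESeq2 called 0. Their log2 fold changes ran from -0.55 to 0.13, among them *FOXJ2*, 13709 bp away, at -0.06 and *NECAP1* at 0.02.

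*SLC2A1* encodes GLUT1, the glucose transporter of most proliferating cells. It was at 238, 278 and 238 CPM in *ZK3*-WT and 164, 125 and 168 CPM in *ZK3*-KO libraries, with no overlap. The log2 fold change of -0.72 (SE 0.17, FDR = 0.0874) missed the threshold in edgeR's test, while DESeq2 gave an FDR of 0.00501 and edgeR without *ZK3*-KO replicate 3 an FDR of 0.0147 at a log2 fold change of -0.80. On the TPM scale *SLC2A3* made up 15.5, 10.9 and 15.1% of the summed level of the 2 glucose transporters in *ZK3*-WT libraries and 1.06, 0.605 and 1.97% in *ZK3*-KO libraries. *SLC2A1* was thus the more abundant of the pair in all 6 libraries.

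The lactate transporters gave smaller differences. *SLC16A3*, which encodes the lactate exporter MCT4, was at 285, 205 and 274 CPM and 313, 317 and 333 CPM. In CPM the *ZK3*-KO libraries were all above the *ZK3*-WT libraries, but in TPM *ZK3*-KO replicate 3 was below *ZK3*-WT replicates 1 and 3. The log2 fold change of 0.33 (SE 0.17, FDR = 0.354) by edgeR did not pass. *SLC16A1*, which encodes the bidirectional transporter MCT1, was at 136, 192 and 184 CPM and 145, 182 and 177 CPM with overlapping groups and a log2 fold change of -0.02 (SE 0.18, FDR = 0.962). Of the 4 transporters, 3 had fold changes below 0 and the median was -0.37 on the log2 scale.

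**Figure D2:**
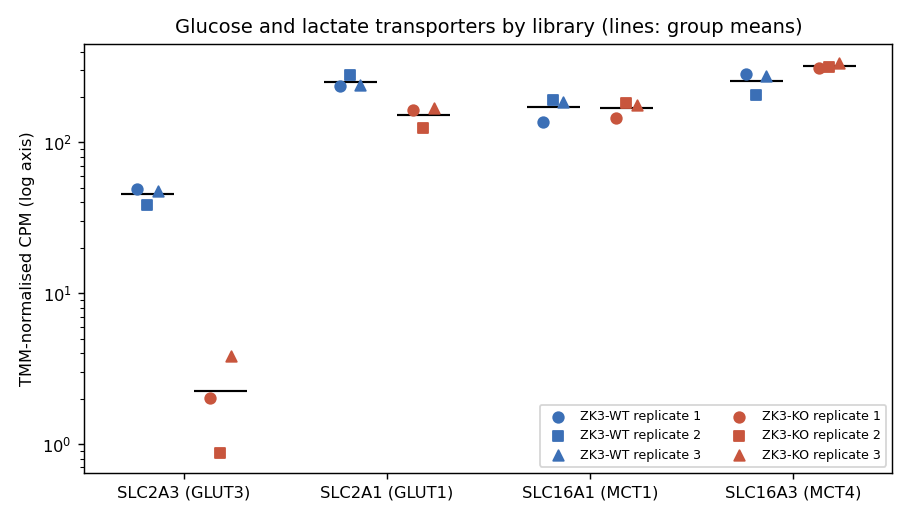
CPM (vertical log axis) of the 4 transporter genes in each library, blue for *ZK3*-WT and red for *ZK3*-KO, with a marker shape per replicate number and lines at the group means. *SLC2A3* falls from 38.3 to 49.4 CPM in *ZK3*-WT to 0.865 to 3.84 CPM in *ZK3*-KO libraries, *SLC2A1* is separated with a smaller gap, and the *SLC16A1* groups overlap.

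The mRNA of the HIF subunits and their regulators gave 0 calls among 7 genes in edgeR's test, 1 at an unadjusted p under 0.05 and 0 with DESeq2, with a median log2 fold change of 0.06. *EPAS1* was at 38.9, 47.3 and 41.3 CPM in *ZK3*-WT cells and 54.0, 56.7 and 77.2 CPM in *ZK3*-KO cells. Its groups did not overlap, and its log2 fold change of 0.56 (SE 0.18, FDR = 0.173) by edgeR missed the threshold. *HIF1A* was at 183, 277 and 266 CPM and 242, 290.1 and 183 CPM, with overlapping groups and a log2 fold change of -0.02 (SE 0.23, FDR = 0.975). The 2 libraries with the least *HIF1A* were *ZK3*-WT replicate 1 and *ZK3*-KO replicate 3. Per length, *EPAS1* reached 0.163, 0.132 and 0.119 of the TPM of *HIF1A* in *ZK3*-WT libraries and 0.171, 0.149 and 0.322 in *ZK3*-KO libraries, where replicate 3 was the highest of the 6.

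The hydroxylase *EGLN3*, itself a HIF target, was at 8.84, 4.62 and 4.49 CPM and 11.4, 6.202 and 9.84 CPM (log2 fold change 0.61, SE 0.35, FDR = 0.396 by edgeR). Its groups overlapped, with *ZK3*-WT replicate 1 above *ZK3*-KO replicate 2. *EGLN2* had a log2 fold change of 0.29 and *EGLN1* one of 0.06, and a readthrough transcript with *RAB4B* held reads equal to 8.79% of those on *EGLN2*. *ARNT*, the shared β subunit, was at 66.2, 55.9 and 50.1 CPM and 64.9, 55.9 and 47.5 CPM. *VHL* was at 117, 138 and 152 CPM and 102, 87.0 and 198 CPM, the *ZK3*-KO libraries including both the lowest and the highest values. The groups of *EGLN1*, *EGLN2*, *ARNT* and *VHL* overlapped, with FDR values from 0.403 to 0.943 by edgeR.

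*HIF1A*, *EGLN3* and *ERO1A* lie on chromosome 14, whose genes were shifted as a whole. The median log2 fold change of its 502 tested genes was 0.52, 80.3% were above 0, and 53 passed the threshold as higher against 3 as lower. Ranked among these 502 genes by log2 fold change, *HIF1A* had 93 below it, *EGLN3* 303 and *ERO1A* 366. The part of this shift in the values of these 3 members was not tested. Without them, the median over the remaining 41 tested members was 0.14.

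Of the angiogenic ligands, *VEGFA* was at 91.1, 157 and 198 CPM in *ZK3*-WT and 72.5, 39.2 and 213 CPM in *ZK3*-KO libraries. In CPM the *ZK3*-KO values spanned the whole *ZK3*-WT range, with replicate 2 the lowest and replicate 3 the highest of all 6. In TPM *ZK3*-WT replicate 3 was the highest, at 120 against 101 in *ZK3*-KO replicate 3. The log2 fold change of -0.46 (SE 0.59, FDR = 0.731) did not pass the threshold by edgeR. Without *ZK3*-KO replicate 3 the log2 fold change was -1.41 and the FDR 0.0283 by edgeR. Without *ZK3*-KO replicate 2 they were -0.058 and 0.967, so the value depended on which of these libraries was left out. *VEGFB*, which is not a classical hypoxia target, was at 12.7, 12.8 and 13.8 CPM and 13.9, 17.96 and 15.6 CPM. Its groups did not overlap in CPM but did in TPM, and its log2 fold change was 0.28 (SE 0.16, FDR = 0.418).

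*ERO1A*, which encodes the disulfide-forming oxidase of the endoplasmic reticulum, was the member of this group with the smallest FDR. It was at 145, 127 and 118 CPM in *ZK3*-WT and 255, 189 and 205 CPM in *ZK3*-KO libraries, all 3 of the latter being higher. Its log2 fold change of 0.74 (SE 0.17, FDR = 0.0849) missed the threshold by edgeR, whereas DESeq2 gave 0.00351 and edgeR without *ZK3*-KO replicate 3 gave 0.0155. *MXI1*, a MYC antagonist, was at 65.3, 74.5 and 65.8 CPM and 58.3, 37.5 and 60.8 CPM, lower in each *ZK3*-KO library (log2 fold change -0.39, SE 0.20, FDR = 0.360).

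For several genes of this group the *ZK3*-KO cultures differed more among themselves than the genotypes did. *NDRG1*, a stress-responsive gene widely used as a hypoxia marker, was at 218, 119.7 and 165 CPM in *ZK3*-WT cells and 255, 46.6 and 624 CPM in *ZK3*-KO cells. *ZK3*-KO replicate 3 exceeded replicate 2 by 13.4-fold, and the log2 fold change of 0.88 (SE 0.75, FDR = 0.583) by edgeR had a standard error close to its own size. Without *ZK3*-KO replicate 3 the log2 fold change of *NDRG1* turned to -0.15 (FDR = 0.880 by edgeR). The membrane carbonic anhydrase *CA9*, whose product controls extracellular pH, was at 1.34, 0.243 and 0.272 CPM and 5.26, 0.202 and 5.28 CPM. Its *ZK3*-KO replicates 1 and 3 were above every *ZK3*-WT library and replicate 2 was below them all (log2 fold change 2.54, SE 1.13, FDR = 0.287). The size of this value varied with the setting, with a log2 fold change of 3.79 when *ZK3*-WT replicate 1 was left out and 1.23 in limma on log2(CPM + 1). *ANKRD37* was at 1.91, 0.770 and 0.930 CPM and 3.01, 0.447 and 2.62 CPM, also with *ZK3*-KO replicates 1 and 3 above and replicate 2 below every *ZK3*-WT library. The peptide hormone gene *ADM* was at 44.97, 21.9 and 28.7 CPM and 40.9, 13.7 and 53.3 CPM, and the transcriptional repressor gene *BHLHE40* at 85.2, 62.3 and 67.7 CPM and 67.0, 23.1 and 79.9 CPM, again with *ZK3*-KO replicate 2 the lowest of the 6 libraries.

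The histone demethylase gene *KDM3A* and the collagen prolyl hydroxylase genes *P4HA1* and *P4HA2* also had their lowest value in *ZK3*-KO replicate 2, with log2 fold changes of 0.08, -0.21 and -0.17 between the genotypes. *CA12*, a second membrane carbonic anhydrase, did not share this order, with 7.79, 8.32 and 6.97 CPM and 5.88, 8.38 and 4.66 CPM. As medians over the 11 genes, log2 levels relative to the *ZK3*-WT mean were 0.42, -0.21 and -0.14 in *ZK3*-WT and 0.43, -1.05 and 0.17 in *ZK3*-KO libraries. Of the 11 genes, 0 were called by edgeR, 1 (*ERO1A*) had an unadjusted p under 0.05, and the same 1 was called by DESeq2.

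**Figure D3:**
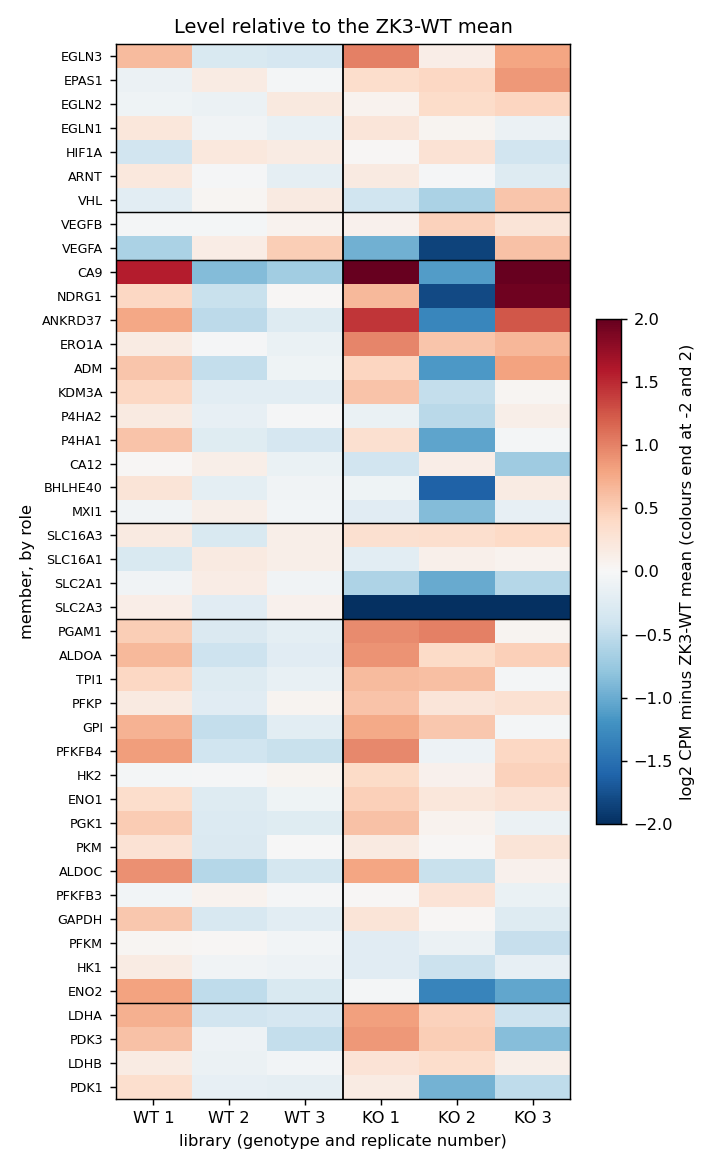
Log2 level of each of the 44 tested members (rows, ordered by role) in each library (columns) relative to the mean of the *ZK3*-WT libraries, with colours ending at -2 and 2. *SLC2A3* is blue in all 3 *ZK3*-KO libraries, the first column of each genotype is red for most glycolytic enzymes, and *NDRG1* and *CA9* run from blue to red among the *ZK3*-KO libraries.

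The 16 enzymes and regulators took 1.39, 0.827 and 0.907% of all reads in *ZK3*-WT libraries and 1.33, 1.10 and 0.924% in *ZK3*-KO libraries. Replicate 1 was the highest of each genotype and the groups overlapped. In edgeR's test 0 of the 16 passed the threshold, 0 had an unadjusted p under 0.05 and DESeq2 called 0. Of the 16, 12 had fold changes above 0, with a median log2 fold change of 0.24 and a range from -0.81 to 0.68. Per length, *GAPDH* had the highest mean level of all members in *ZK3*-WT cells, 5989.6 ± 2010.4 TPM (SD, n = 3), followed by *ENO1* at 2103 ± 451 TPM and *PKM* at 1377 ± 245 TPM.

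In the upper part of the pathway, the hexokinase gene *HK2* was at 82.9, 84.1 and 88.2 CPM in *ZK3*-WT and 111, 90.5 and 117 CPM in *ZK3*-KO libraries (log2 fold change 0.32, FDR = 0.310 by edgeR), and *HK1* at 132, 112 and 109 CPM and 100.02, 87.0 and 105 CPM (log2 fold change -0.27, FDR = 0.385). Both pairs of groups were separate, in opposite directions. The phosphofructokinase genes, which encode the committed step, gave the same picture in CPM, while in TPM the *PFKP* groups overlapped. *PFKP* was at 237, 178 and 218 CPM and 312, 248 and 258 CPM (log2 fold change 0.37, FDR = 0.313 by edgeR) and *PFKM* at 165, 162 and 154 CPM and 138, 147 and 117 CPM (log2 fold change -0.26, FDR = 0.393). *PFKFB3* and *PFKFB4* encode the enzymes that set the level of a fructose bisphosphate which activates phosphofructokinase. *PFKFB3* was at 54.4, 58.9 and 55.5 CPM and 57.0, 67.6 and 51.5 CPM and *PFKFB4* at 42.2, 17.8 and 17.3 CPM and 45.7, 21.9 and 31.3 CPM, the latter highest in replicate 1 of both genotypes.

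Among the enzymes of the middle and lower pathway, *PGAM1* (phosphoglycerate mutase) had the largest positive log2 fold change of the 16, 0.68 (SE 0.31, FDR = 0.306 by edgeR). It was at 307, 178 and 190.3 CPM and 418, 437 and 226 CPM, and the groups overlapped through *ZK3*-WT replicate 1 and *ZK3*-KO replicate 3. Without *ZK3*-KO replicate 3 its log2 fold change was 0.93 with an FDR of 0.0225. *GAPDH*, often used as a reference gene, was at 5123, 2802 and 3030.5 CPM and 4214, 3565 and 2939.9 CPM. Its log2 fold change was -0.03 (FDR = 0.967 by edgeR), whereas within the parental cells replicate 1 was 1.76 times the geometric mean of replicates 2 and 3. The other enzymes had overlapping groups and log2 fold changes of 0.52 for the aldolase gene *ALDOA*, 0.40 for *TPI1*, 0.36 for *GPI*, 0.31 for the enolase gene *ENO1*, 0.17 for *PGK1* and 0.14 for the pyruvate kinase gene *PKM*.

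*ENO2*, the enolase gene also known from neurons, was at 103, 41.1 and 47.7 CPM and 56.9, 23.6 and 28.5 CPM. The groups overlapped, since *ZK3*-KO replicate 1 was above *ZK3*-WT replicates 2 and 3, and edgeR gave a log2 fold change of -0.81 (SE 0.44, FDR = 0.378). Within each replicate number, however, *ZK3*-KO was the lower. With the replicate number as a block the log2 fold change was -0.80 and the FDR 0.0419, and 2 members (*SLC2A3* and *ENO2*) passed the threshold against 2.51% of all genes. *ALDOC*, the second aldolase gene, was at 87.5, 31.3 and 36.5 CPM and 80.2, 34.2 and 49.1 CPM, with a log2 fold change of 0.07 (SE 0.45, FDR = 0.954).

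*LDHA* and *LDHB* encode the lactate dehydrogenase subunits that interconvert pyruvate and lactate. *LDHA* was at 934, 438 and 452 CPM in *ZK3*-WT and 1006, 782 and 428 CPM in *ZK3*-KO libraries, with overlapping groups and a log2 fold change of 0.28 (SE 0.40, FDR = 0.757) by edgeR. *LDHB* was at 783, 646 and 673 CPM and 839, 894 and 757 CPM (log2 fold change 0.24, SE 0.16, FDR = 0.463). The pyruvate dehydrogenase kinases inhibit the conversion of pyruvate to acetyl-CoA. *PDK1* was at 37.6, 26.5 and 26.2 CPM and 33.3, 15.4 and 20.8 CPM and *PDK3* at 42.2, 26.1 and 20.1 CPM and 51.5, 39.5 and 15.6 CPM, both with overlapping groups. Of these 4 genes 0 passed the threshold by edgeR, 0 had an unadjusted p under 0.05 and DESeq2 called 0.

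Levels of related genes were set against each other in each library on the TPM scale, for 13 pairs. For 3 against 3 libraries an exact permutation test cannot give a p under 0.1, and these ratios were not tested. The groups were separate for 4 of the 13, where single genes were separate for 26.6% of all tested genes. The share for ratios of other gene pairs was not computed. *HK2* was at 0.404, 0.486 and 0.518 times the TPM of *HK1* in *ZK3*-WT libraries and 0.710, 0.669 and 0.712 times in *ZK3*-KO libraries. *HK1* thus stayed the more abundant hexokinase while its margin was smaller in each *ZK3*-KO library. *PFKP* was at 1.74, 1.31 and 1.72 times *PFKM* and 2.69, 1.99 and 2.66 times, respectively. *ENO2* made up 3.45, 2.16 and 2.19% of the enolase TPM in *ZK3*-WT and 1.78, 0.884 and 1.02% in *ZK3*-KO libraries. The fourth was *SLC2A3* to *SLC2A1*, given above.

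The other 9 ratios overlapped. *LDHB* was at 1.43, 2.52 and 2.54 times *LDHA* in *ZK3*-WT libraries and 1.43, 1.95 and 3.01 times in *ZK3*-KO libraries, lowest in replicate 1 of both genotypes. *CA12* was above *CA9* in 4 libraries, whereas *CA9* was above *CA12* in *ZK3*-KO replicates 1 and 3. *SLC16A3* was above *SLC16A1* per length in all 6 libraries, with ratios of 3.10, 1.64 and 2.32 and 3.24, 2.60 and 2.82.

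**Figure D4:**
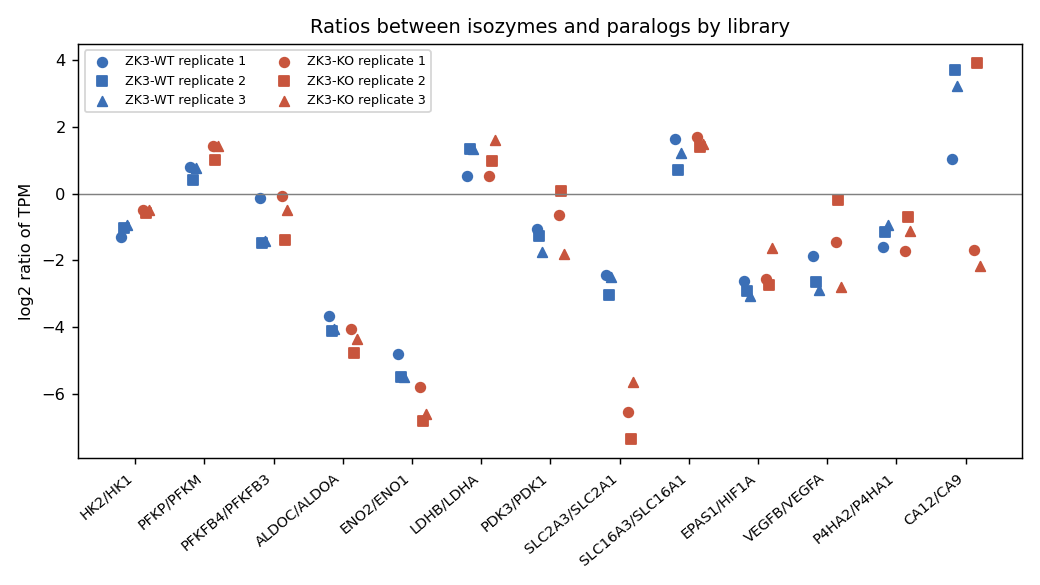
Log2 ratio of TPM (vertical axis) between related members in each library, blue for *ZK3*-WT and red for *ZK3*-KO with a marker shape per replicate number. Values above 0 mean that the first gene of the pair is the more abundant. *HK2*/*HK1* and *PFKP*/*PFKM* are higher in all *ZK3*-KO libraries, *ENO2*/*ENO1* and *SLC2A3*/*SLC2A1* are lower, and the other 9 pairs overlap.

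A pattern shared by many members followed the replicate number, and it was examined after it had been seen. Replicate 1 held the highest value of its genotype in both genotypes for 20 of 44 members (45.5%), against 12.7% of all tested genes, and the lowest in both for 3 members, against 11.3% of all genes. By role this was 10 of 16 glycolytic enzymes, 3 of 4 pyruvate branch point genes, 4 of 11 other hypoxia-induced genes, 3 of 7 oxygen sensing genes, 0 of 4 transporters and 0 of 2 VEGF ligands. An edgeR term for the replicate number had an unadjusted p under 0.05 for 16 of 44 members (36.4%), against 10.5% of all genes, and it passed an FDR of 0.05 for 0 members and 0 of all 18366 genes. The members are not independent of each other, and these counts are a description of these 6 cultures.

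The 16 glycolytic enzymes had median log2 levels relative to the *ZK3*-WT mean of 0.45, -0.28 and -0.17 in *ZK3*-WT and 0.52, 0.08 and 0.01 in *ZK3*-KO libraries. All 45 members together took 1.79, 1.16 and 1.25% of the reads in *ZK3*-WT and 1.75, 1.44 and 1.28% in *ZK3*-KO libraries. *LDHA* in *ZK3*-WT replicate 1 was 2.10 times the geometric mean of replicates 2 and 3, while the genotype means differed by a log2 fold change of 0.28. *ALDOC* gave 2.59 times in *ZK3*-WT and 1.96 times in *ZK3*-KO cells, and *ENO2* 2.33 and 2.19 times. The unadjusted p of the replicate number was 7.36e-04 for *ALDOC* and 2.95e-04 for *ENO2* in edgeR's fit with genotype. *VEGFA* differed in sign, with replicate 1 at -0.95 relative to replicates 2 and 3 on the log2 scale in *ZK3*-WT cells, and -0.33 in *ZK3*-KO cells. In *ZK3*-KO cells its replicate 1 was below replicate 3 but above replicate 2. *EPAS1*, *EGLN2*, *VHL*, *VEGFB*, *SLC16A1* and *PFKFB3* also had replicate 1 below the mean of replicates 2 and 3 in both genotypes. Neither the labels nor the methods say what the replicate numbers mark, and the density, medium or harvest of the cultures is not given by library.

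**Figure D5:**
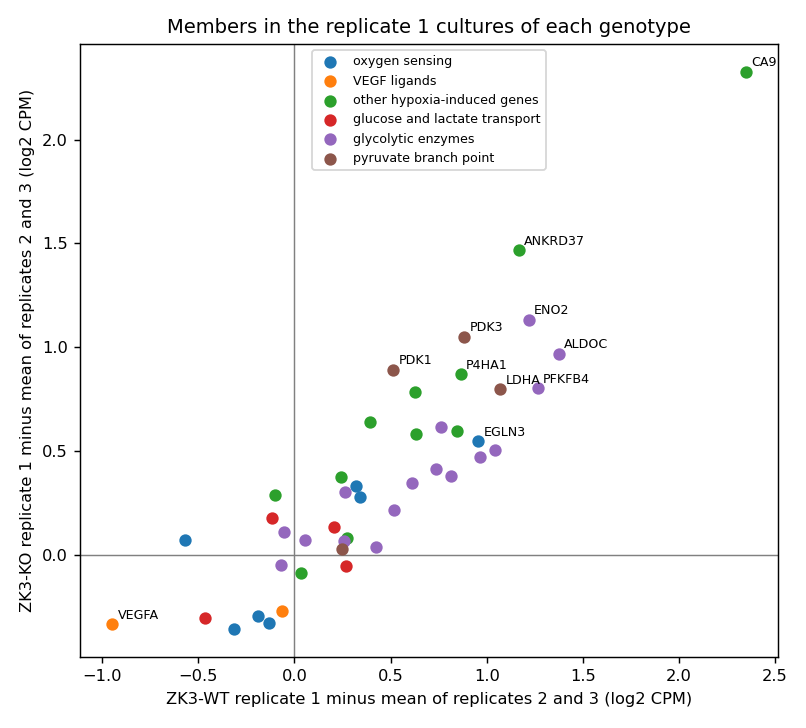
Log2 CPM of replicate 1 minus the mean of replicates 2 and 3 for each of the 44 tested members, in *ZK3*-WT cells (horizontal axis) and *ZK3*-KO cells (vertical axis), coloured by role. Most members lie in the upper right, where replicate 1 is above the mean of the other replicates in both genotypes, with *CA9*, *ANKRD37*, *ENO2* and *ALDOC* farthest out and *VEGFA* at the lower left.

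HIF dimers bind the core ACGTG or GCGTG, and the promoters of 4 members with replicate 1 above the mean of replicates 2 and 3 in both genotypes are shown because they hold ACGTG, chosen after their values were seen. RefSeq sequences on GRCh38.p14 were used, and the 250 bases before the start of the gene are printed 5′ to 3′ with ACGTG on either strand in capitals. The regions are chr17:28576896-28577145, minus strand for *ALDOC*, chr4:185396591-185396840, plus strand for *ANKRD37*, chr12:6914330-6914579, plus strand for *ENO2* and chr9:35673678-35673927, plus strand for *CA9*.
ALDOC: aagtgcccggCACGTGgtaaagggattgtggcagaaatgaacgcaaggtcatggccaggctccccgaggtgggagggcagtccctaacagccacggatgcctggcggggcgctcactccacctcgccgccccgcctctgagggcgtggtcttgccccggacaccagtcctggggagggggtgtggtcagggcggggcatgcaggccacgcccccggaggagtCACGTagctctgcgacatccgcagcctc
ANKRD37: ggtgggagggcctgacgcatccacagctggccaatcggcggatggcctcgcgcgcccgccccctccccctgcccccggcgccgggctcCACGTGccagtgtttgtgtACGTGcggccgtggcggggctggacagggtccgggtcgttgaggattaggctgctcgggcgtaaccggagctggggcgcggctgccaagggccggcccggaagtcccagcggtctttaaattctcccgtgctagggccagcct
ENO2: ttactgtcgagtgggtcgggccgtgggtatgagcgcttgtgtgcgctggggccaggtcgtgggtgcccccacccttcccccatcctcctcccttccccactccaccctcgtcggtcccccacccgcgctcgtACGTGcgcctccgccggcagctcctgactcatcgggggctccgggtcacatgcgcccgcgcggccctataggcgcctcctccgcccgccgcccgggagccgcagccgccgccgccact
CA9: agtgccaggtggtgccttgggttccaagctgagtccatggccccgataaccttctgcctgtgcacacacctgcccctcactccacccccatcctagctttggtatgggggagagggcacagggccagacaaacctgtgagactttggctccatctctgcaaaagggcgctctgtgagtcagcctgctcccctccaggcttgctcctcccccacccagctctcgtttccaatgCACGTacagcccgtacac
The 6-base palindrome CACGTG reads ACGTG on both strands, so *ALDOC* and *ANKRD37* each have 3 matches and *ENO2* and *CA9* 1 each.

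Promoter windows of 300 bases, from 250 before to 50 after a start site, were matched for 40 of the 45 members with 71 windows, and *VHL*, *VEGFA*, *NDRG1*, *SLC2A3* and *SLC16A1* were not matched. ACGTG on either strand was in 27 of the 71 windows (38.0%), against 21.4% of all 35116 windows. No ACGTG was found for *PFKFB4*, *KDM3A*, *EGLN3*, *PGAM1*, *ENO1*, *PKM*, *ARNT*, *ADM*, *P4HA2*, *HK1* and *LDHB*. In these too, replicate 1 was above the mean of replicates 2 and 3 in both genotypes. *EPAS1* and *VEGFB* also had none, with replicate 1 below that mean in both genotypes. *HIF1A*, *CA12* and *SLC2A1* had none and differed in sign between the genotypes, and *VEGFC* had none and no reads. *EGLN2* and *PFKFB3* held ACGTG, with replicate 1 below in both. A link between motif and pattern was not tested. The variant GCGTG, on either strand, was in 42.3% and 36.5%, and CACGTG in 12.7% and 7.26%, respectively, each CACGTG window being counted among those with ACGTG as well. A match is a run of letters in a window, and binding was not measured.

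A further 107 genes of the same and adjoining pathways were listed, of which 95 were tested. By edgeR 0 passed the threshold, 12 had an unadjusted p under 0.05 (9 higher and 3 lower in *ZK3*-KO), and DESeq2 called 5, beside 18.4% and 8.20% of all genes for the last 2 counts. Without *ZK3*-KO replicate 3, 20 passed the threshold by edgeR, 12 of them higher, beside 15.1% of all genes. The 5 calls of DESeq2 were *SLC2A14* as lower, and *PGF* (placental growth factor), *NRP1* (a VEGF co-receptor), *BPGM* (bisphosphoglycerate mutase) and *DLST* (a subunit of the oxoglutarate dehydrogenase complex) as higher, named here after their values were seen. *NRP1* was at 7.24, 7.48 and 13.02 CPM in *ZK3*-WT and 24.0, 14.6 and 44.9 CPM in *ZK3*-KO libraries, with no overlap (log2 fold change 1.59, SE 0.43, FDR = 0.119 by edgeR). *DLST* was at 113, 108 and 110.4 CPM and 182, 199.8 and 143 CPM, also with no overlap (log2 fold change 0.66, SE 0.16, FDR = 0.0959), and it lies on chromosome 14. The median log2 fold change was 0.17 over the 95 genes, 0.18 over 16 genes of the tricarboxylic acid cycle, 0.22 over 7 of the pentose phosphate pathway and -0.09 over 13 HIF partners and regulators. It was 0.65 over 6 VEGF family receptors, co-receptors and ligands, 0.18 over 13 genes from pyruvate to acetyl-CoA and 0.12 over 8 further transport genes. Over 9 further glycolytic enzymes it was -0.33, beside 0.24 over the 16 enzymes of the set.

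The replicate pattern held for part of the hypoxia-induced genes outside the set. Of 23 further hypoxia-induced genes tested, replicate 1 was the highest in both genotypes for 12 and the replicate number had an unadjusted p under 0.05 in edgeR's fit for 9, beside 12.7% and 10.5% of all genes. Between the genotypes their median log2 fold change was 0.0025. In the other lists replicate 1 was less often the highest in both genotypes. This held for 3 of 9 further glycolytic enzymes, 1 of 8 further transport genes and 2 of 13 genes from pyruvate to acetyl-CoA. It held for 0 of 7 pentose phosphate genes, 4 of 16 tricarboxylic acid cycle genes, 2 of 13 HIF partners and regulators and 2 of 6 VEGF receptors and ligands. Over all 95 genes the share was 27.4%. *BNIP3*, a mitophagy receptor gene induced by HIF-1α and chosen after its values were seen, was at 45.2, 16.4 and 18.9 CPM in *ZK3*-WT and 59.5, 24.7 and 32.4 CPM in *ZK3*-KO libraries. Replicate 1 was the highest of each genotype.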

How the data were processed

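RNA of 3 *ZK3*-WT and 3 *ZK3*-KO cultures of HCT116 cells was sequenced by the authors with a stranded mRNA kit. The authors deposited raw read counts per gene, without normalization, beside TPM values and FPKM values that they scaled by transcript length and library size. Per the labels, Bowtie2 2.2.5 and hg19 (GRCh37) were used. An Ensembl annotation is named in the methods, but genes carry NCBI Gene identifiers in the table, and the strand setting of the counting was not given in the sources used here. Counts were tested here, the deposited TPM values were used for isozyme ratios, marker levels and 1 alternative, and FPKM was not used.

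Members were matched by symbol, and members and lists were chosen with earlier results of these data known. The counts went into edgeR 4.0.16 (R 4.3.3), where filterByExpr, TMM scaling and a quasi-likelihood test on genotype alone were applied, with Benjamini-Hochberg adjustment over 18366 genes and a threshold of 0.05. Log2 CPM had 0.5 reads added. Replicates are separate samples per the labels, and the tests set the genotype difference against the spread between cultures of the same genotype. The alternatives were DESeq2 1.42.0, library totals, RLE and upper-quartile factors, a filter of 1 read in any library, a filter of 10 reads in each library, limma 3.58.1 on log2(CPM + 1) and log2(TPM + 1), a block for the replicate number, fits that left out 1 library each, unadjusted p-values, and the median without chromosome 14. The replicate number term, the count of replicate 1 maxima, the neighbours of *SLC2A3* and the sum with *SLC2A14* were added after seeing the data.

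Same-numbered libraries deviated together from their genotype means over 18366 genes, with correlations of 0.231, 0.102 and 0.390 for numbers 1, 2 and 3. *ZK3*-WT replicate 1 and *ZK3*-KO replicate 2 gave 0.183, above the value for number 2, and the other differently numbered pairs gave negative values. Whether the numbers pair the libraries is therefore not settled, and no label says what they mark. The blocked value is given where it changed a call. Every member could be named, and other listed genes by FDR, with exceptions stated. Positions came from a GENCODE annotation of GRCh37 matched by symbol (85.9% of tested genes). Reads on pseudogene entries exceeded 1% of the member's reads for 2 of 15 members with such entries, *LDHA* (1.53%) and *HK2* (1.10%). The scripts were tested on simulated counts.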

Additional observations from a re-analysis of the deposited data

How the results depend on the processing

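Over all genes, 376 calls became 1506 with DESeq2 and 3371 with unadjusted p-values, and between 49 and 2858 when a library was left out. Among members, 1 call became 3 with DESeq2, 2 with the replicate number as a block and 4 with unadjusted p-values, and 0 to 5 when a library was left out. The block changed no other member's call. The median log2 fold change over members stayed between 0.02 and 0.30. Across 15 alternative fits 38 of the 44 members never passed the FDR threshold and 29 kept their direction in each.

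For 15 members the fold change turned in sign under an alternative, and the cause was not tested. With library totals *EGLN1* gave -0.015, *KDM3A* -0.0014, *PFKFB3* -0.015 and *ALDOC* -0.0015. With limma on log2(TPM + 1) *EGLN1* gave -0.064, *ADM* -0.092, *KDM3A* -0.072 and *PFKFB3* -0.070. *GAPDH* gave 0.0072 with limma on log2(CPM + 1) and 0.0070 with the block. When a library was left out, which leaves fewer samples by construction, log2 fold changes turned within these ranges. *NDRG1* (0.88 with all libraries) ran from -0.15 to 1.39 and turned only without *ZK3*-KO replicate 3. Turns without *ZK3*-KO replicate 1 included *EGLN1* (-0.027 to 0.18), *PDK3* (-0.081 to 0.63), *PGK1* (-0.059 to 0.47), *ALDOC* (-0.31 to 0.68), *SLC16A1* (-0.16 to 0.077), *KDM3A* (-0.22 to 0.31) and *VHL* (-0.52 to 0.14). *VHL*, *PFKFB3* (-0.052 to 0.15), *BHLHE40* (-0.67 to 0.035) and *P4HA1* (-0.51 to 0.14) turned without *ZK3*-KO replicate 2, and *ADM* (-0.22 to 0.56), *ARNT* (-0.14 to 0.080), *HIF1A* (-0.19 to 0.14) and *GAPDH* (-0.19 to 0.29) without *ZK3*-KO replicate 3. *GAPDH*, *P4HA1* and *ARNT* also turned without *ZK3*-WT replicate 1, *ALDOC*, *SLC16A1*, *KDM3A*, *ADM* and *HIF1A* without *ZK3*-WT replicate 2, and *ALDOC*, *SLC16A1*, *KDM3A*, *VHL*, *EGLN1* and *HIF1A* without *ZK3*-WT replicate 3.

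With 3 libraries per genotype and 1 of them apart, differences the size of those of *SLC2A1* and *ERO1A* were not called by edgeR, and a missed threshold does not show equal levels.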
